A study of Mus musculus with 441 samples.

Results

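The 44 genes described here act in or for the endoplasmic reticulum (ER): chaperones that fold secreted proteins, enzymes that form disulphide bonds, the machinery that brings new proteins into the ER and removes their signal peptides, the disposal route for misfolded proteins, and the factors of the unfolded protein response. They were taken from a written list, and 44 of 44 were present among the 13561 genes of the expression table. The table covers 441 single cells from mouse pancreatic islets, sorted by FACS with a tetramer (joined MHC class II molecules loaded with a peptide, to which T cells of fitting receptor bind) and profiled by SMART-Seq2, a full-length single-cell RNA-seq method. The study aimed at CD4 T cells specific for beta cells, the insulin-producing cells of the islet. Of these cells, 184 came from the HIP sort and 257 from the Ins sort. The labels used here do not spell out HIP and give no strain, age, sex or number of mice.

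The groups follow the cell types and clusters that the authors deposited. Cluster 4, which the authors annotated as B cells, held 21 cells, all from the Ins sort. The clusters annotated as T cells held 184 HIP and 236 Ins cells. Cluster 0, annotated as T follicular helper, held 111 HIP and 61 Ins cells, cluster 1, the regulatory T (Treg) cells, 3 HIP and 115 Ins cells, cluster 2, annotated as activated CD4 T cells, 61 HIP and 25 Ins cells, and cluster 3, the dividing CD4 T cells, 9 HIP and 35 Ins cells. The 10 leading genes of cluster 0 held the B cell marker Cd22 and 0 of 4 T follicular helper markers (Cxcr5, Bcl6, Il21, Pdcd1). Those of cluster 1 held Foxp3. Yet the summed level of these 4 markers (TPM, explained below) had its highest medians in cluster 0, at 1219 (HIP) and 1165.5 (Ins). Cluster 2 stood at 683 (HIP) and 744 (Ins), and Ins Treg cells at 1.67. The summed B cell markers had a median of 0 in cluster 0, but its highest cells reached 35049 (HIP) and 30303.5 (Ins). The highest cell of cluster 4 reached 18493, and no other T cell class passed 1304. Whether such cells of cluster 0 are B cells or doublets was not tested, and they were kept. No marker list covered the activated state of cluster 2. Clusters 0 and 2 are called by number below, and whether their annotated names hold was not tested. Because no label ties a cell to an animal, each sort is 1 sample. The clusters were also drawn from these same transcriptomes. All comparisons are therefore descriptions without a test, and an SD over cells is not a replicate error.

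Secreted and membrane proteins enter the ER through the Sec61 channel, lose their signal peptide, and fold with the help of chaperones such as BiP (Hspa5) and GRP94 (Hsp90b1). When unfolded protein builds up, 3 sensors in the ER membrane, IRE1, PERK and ATF6, raise the output of folding and disposal genes: IRE1 by splicing the mRNA of Xbp1, PERK through translation of Atf4, and ATF6 by release of its cytosolic part. Plasma cells, the antibody-secreting end stage of the B lineage, are known for an enlarged ER and for their need of XBP1. T cells secrete cytokines but carry little rough ER.

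The label of cluster 4 was checked against its markers. Among its 10 leading genes, 4 were markers of antibody-secreting cells: Igj (the J chain that joins antibody units), Mzb1, Sdc1 and Tnfrsf17. Of the 11 antibody-secreting markers in the table, 11 were detected in at least 1 of the 21 cells. Their summed level ranged between 40525 and 331803 TPM per cell with a median of 128519 TPM, against a range of 0 to 3292 TPM and a median of 256 TPM in Ins T cells. The B cell markers Cd79a and Cd74 were detected in 19 and 21 of 21 cells, and Ms4a1 (CD20), which plasma cells usually lose, in 7 of 21. The T cell marker Cd3e was detected in 1 of 21 cells and Cd4 in 0 of 21, against 230 and 202 of 236 Ins T cells. The 21 cells are called antibody-secreting cells below. Fcer1g, usually a myeloid gene, was also among their 10 leading genes and was detected in 20 of 21 cells, against 0 of 236 Ins T cells. Of the 6 myeloid markers in the table, 4 were detected in at least 1 antibody-secreting cell, Lyz2 and Itgax being at 0 in all 21. The 6 summed to 942 to 8848 TPM per antibody-secreting cell with a median of 3237 TPM. In Ins T cells they summed to 0 to 9443 TPM with a lower median of 746 TPM. The part of myeloid RNA in the results was not tested. Mzb1 and Derl3, both among the 44 genes, also stood among these 10 leading genes, and Mzb1 and Xbp1 are on the marker list, so their high level in this class restates how the class was found.

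The ER genes can be read beside the DNA in front of them. The ER stress response element (ERSE) is the site through which ATF6 and XBP1 act, its CCACG part bound by them and its CCAAT part by NF-Y, and ERSE-II is a compact form of it. RefSeq gives the bases around the start of 35 of the 44 genes (GRCm38.p6, 250 bases before the start and 50 after it; Ero1l under its symbol Ero1a). The ERSE, searched on both strands as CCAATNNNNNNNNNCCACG, matched in 9 of these 35 windows (25.7%), against 37 of all 27025 genes with a window (0.137%). The ERSE-II, searched as ATTGG, any 1 base and CCACG, matched in 2 of 35 (5.71%), against 0.0444% of all genes. The genes were listed for their ER roles, and both elements belong to the ER stress response. The shares are therefore a description and no test of the list. The 10 ERSE matches of the 9 genes, Hsp90b1 having 2, are shown 5′ to 3′ on the strand that reads CCAAT, with the fixed letters in capitals, because this short element is shared by genes with otherwise different roles.
Hspa5: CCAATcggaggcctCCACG
Hsp90b1, distal: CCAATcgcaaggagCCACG
Hsp90b1, proximal: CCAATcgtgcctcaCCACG
Dnajc3: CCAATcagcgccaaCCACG
Calr: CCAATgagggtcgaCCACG
Canx: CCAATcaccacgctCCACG
Creld2: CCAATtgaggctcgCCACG
Pdia6: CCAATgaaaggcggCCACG
Syvn1: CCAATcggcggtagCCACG
Derl3: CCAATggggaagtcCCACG
The ERSE-II matches lay in Dnajb11 and Herpud1.
Dnajb11: ATTGGcCCACG
Herpud1: ATTGGgCCACG

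Counted from the start of the gene, the first transcribed base being 0, the Hspa5 match spanned bases -65 to -47, the Syvn1 match -44 to -26, and the distal and proximal Hsp90b1 matches -212 to -194 and -107 to -89. The Derl3 match spanned -156 to -138 on the opposite strand, and the Dnajb11 match lay behind the start, at bases 7 to 17. The 250 bases before the start are printed for 4 genes that differ in level and in arrangement: a chaperone with 1 element near the start (Hspa5, chr2:34771840-34772089, plus strand), a chaperone with 2 elements in opposite directions (Hsp90b1, chr10:86705445-86705694, minus strand), a disposal gene with the compact form and an amino acid response element (Herpud1, chr8:94386179-94386428, plus strand), and the disposal gene with the largest log2 ratio between antibody-secreting and Ins T cells (Derl3, chr10:75893148-75893397, plus strand). Capitals mark the fixed letters of each match. An ERSE on the opposite strand reads as CGTGG, spacer, ATTGG, and the amino acid response element of Herpud1, also on the opposite strand, as TTGCATCA.
Hspa5: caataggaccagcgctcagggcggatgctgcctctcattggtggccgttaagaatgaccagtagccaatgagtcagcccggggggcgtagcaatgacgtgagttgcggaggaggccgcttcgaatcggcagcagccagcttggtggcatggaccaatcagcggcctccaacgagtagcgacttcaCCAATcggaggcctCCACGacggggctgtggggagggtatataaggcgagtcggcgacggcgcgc
Hsp90b1: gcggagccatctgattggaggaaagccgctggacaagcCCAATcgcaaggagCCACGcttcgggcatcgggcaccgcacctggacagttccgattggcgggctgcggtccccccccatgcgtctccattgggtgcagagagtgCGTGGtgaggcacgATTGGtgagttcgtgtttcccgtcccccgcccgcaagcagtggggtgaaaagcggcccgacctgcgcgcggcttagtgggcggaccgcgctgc
Herpud1: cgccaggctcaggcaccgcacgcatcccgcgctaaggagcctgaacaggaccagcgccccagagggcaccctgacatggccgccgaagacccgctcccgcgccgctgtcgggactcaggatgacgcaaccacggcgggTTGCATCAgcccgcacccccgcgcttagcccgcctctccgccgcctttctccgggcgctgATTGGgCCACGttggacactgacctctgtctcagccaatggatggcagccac
Derl3: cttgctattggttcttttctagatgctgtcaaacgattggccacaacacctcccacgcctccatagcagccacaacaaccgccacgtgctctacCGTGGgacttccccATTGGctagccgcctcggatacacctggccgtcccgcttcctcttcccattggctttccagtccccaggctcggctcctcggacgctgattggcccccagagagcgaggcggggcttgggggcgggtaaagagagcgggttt

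The amino acid response element, TGATGCAA, a site of ATF4, matched in Herpud1 alone among the 35 windows (2.86%), against 1.03% of all genes. The UPR element TGACGTGG matched in 0 of 35 windows, against 0.714% of all genes. A match shows letters in a window and says nothing of binding in these cells.

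In each antibody-secreting cell the 44 ER genes took up a larger share of the transcripts than in any T cell. Levels are in TPM, the share of transcripts corrected for gene length and scaled to sum to 1000000 in each cell. Summed over the 44 genes, the share was lowest at 4.03%, median 7.02% and highest at 10.7% of TPM in the 21 antibody-secreting cells, against 0.0255%, 0.722% and 2.57% in the 236 Ins T cells. The least loaded antibody-secreting cell thus lay above the most loaded T cell of either sort, and the groups did not overlap. Without Mzb1, the most abundant of the 44, the antibody-secreting cells still ranged between 3.25% and 8.20%. The number of the 44 genes detected per cell (at 1 TPM or more) was 30 to 43 with a median of 39 in antibody-secreting cells, against 2 to 36 with a median of 14 in Ins T cells. Antibody-secreting cells also had more genes detected in all, with a median of 2477 (751 to 4254), against 2093 (694 to 5324) in Ins T cells. Restricted to cells with at least 1500 genes, the ER share had a median of 6.59% in 20 antibody-secreting cells and 0.727% in 216 Ins T cells.

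**Figure D1:**
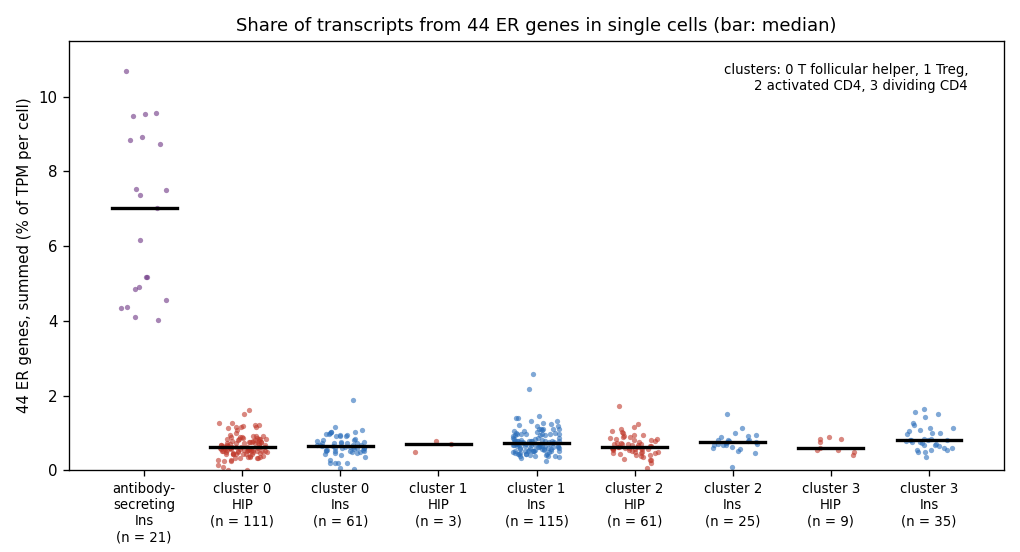
Share of transcripts from the 44 ER genes in each cell (y axis, % of TPM) by cluster and tetramer sort (x axis); points are cells and bars are medians. The antibody-secreting cells spread between 4.03% and 10.7%, and all T cell classes have medians under 1%, the highest T cell standing at 2.57%.

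The denominator of these shares deserves a statement. The table held 0 immunoglobulin heavy or light chain genes, so their transcripts are outside the total. Igj alone took 3.01% to 32.1% of TPM in antibody-secreting cells, with a median of 9.87%. Without Igj and the ribosomal RNA gene Rn45s, the ER share of antibody-secreting cells was 4.36% to 11.8% with a median of 8.21%, against a median of 0.738% in Ins T cells.

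Gene by gene, 39 of the 44 were more than 2-fold higher in antibody-secreting cells than in Ins T cells (ratio of mean TPM, 1 TPM added to both), 0 were more than 2-fold lower, and 5 lay within 2-fold. Across the 7335 genes compared, 14.2% were higher past 2-fold and 35.6% were lower. The median log2 ratio was 2.56 over the 44 genes and -0.51 over all genes compared. With the difference of mean log2(TPM + 1) in place of the ratio of means, the split over all genes was 23.1% higher and 11.3% lower, and 43 of the 44 were higher. The antibody-secreting cells lay in 3 blocks of 96 consecutive cell numbers, with 2, 14 and 5 cells. The labels do not say what a block is. Set against the T cells of the same block, 39 of the 44 genes were higher past 2-fold in every one of these blocks, against 4.36% of all genes compared. These 39 are not all the same genes as the 39 over all cells. They include Canx (log2 ratios 1.35, 1.03 and 1.10), inside 2-fold over all cells, and leave out Sec63, at 0.117 in the block of 14 cells. The share of cells in which a gene was detected had 95% Clopper-Pearson intervals, which cover counting error only, that did not overlap for 41 of the 44 genes, the antibody-secreting share being the higher; the same held for 13.6% of all genes compared. The intervals overlapped for Pdia3, Sec62 and Sec63.

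**Figure D2:**
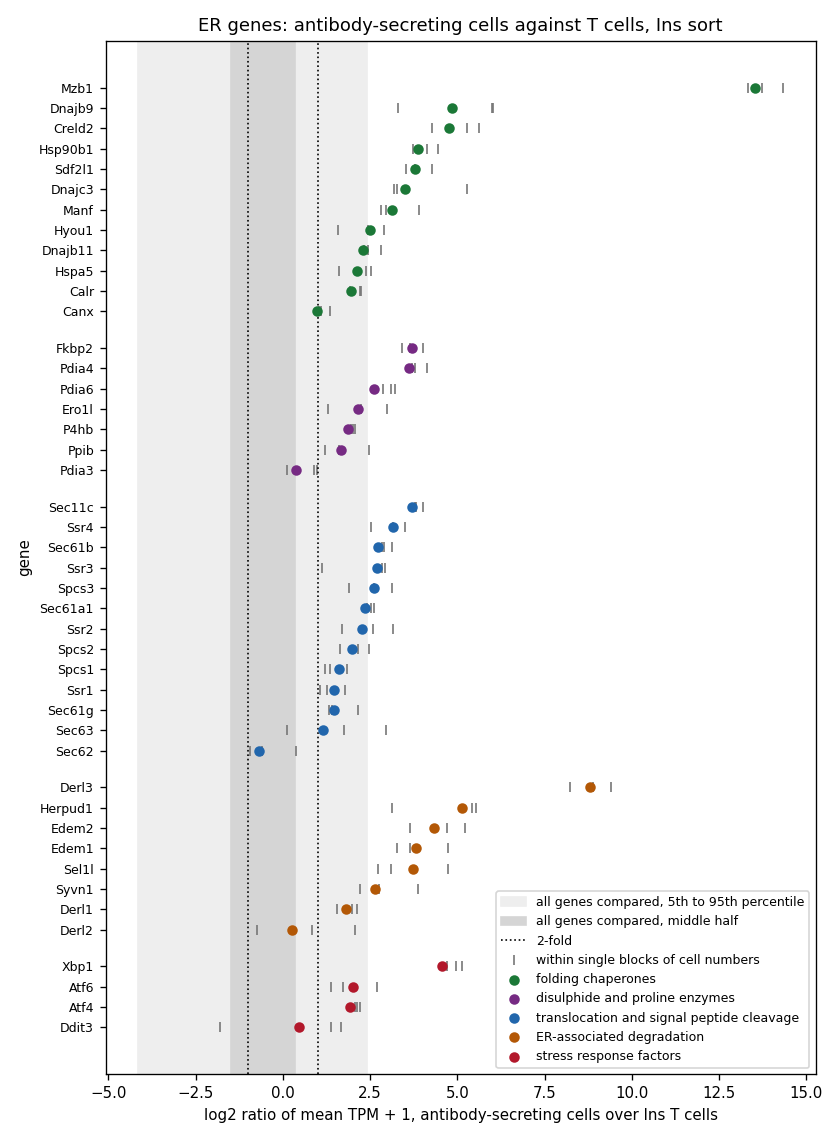
Log2 ratio of mean TPM + 1 in antibody-secreting over Ins T cells (x axis) for each of the 44 ER genes (y axis, grouped by role); points use all cells, ticks use the antibody-secreting and Ins T cells of 1 block of cell numbers, and the grey bands give the 5th to 95th percentile and the middle of all 7335 genes. Mzb1 stands at 13.53 and Derl3 at 8.81, while Sec62, at -0.68, is the only one of the 44 below 0.

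Among the 12 folding chaperones, 11 were higher past 2-fold. Mzb1, a B lineage ER protein that assists antibody assembly with GRP94, was lowest at 1506 TPM, median 11265 TPM and highest at 32884 TPM in antibody-secreting cells. It was detected in 21 of 21 of them. Among HIP T cells it was detected in 0 of 184 (with 3 cells, or 1.63%, allowed by a set floor that is no Clopper-Pearson limit). Among Ins T cells it was detected in 2 of 236 (highest 20.3 TPM). Its log2 ratio of 13.53 rests on a T cell mean of 0.0964 TPM from 2 cells and on the 1 TPM added, so its size is not well fixed.

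Hsp90b1 (GRP94), the ER form of HSP90, was lowest at 1418 TPM, median 3599 TPM and highest at 15618 TPM in antibody-secreting cells, against 0, 51.4 and 3518 TPM in Ins T cells. The groups overlapped, but 0 of 236 T cells reached the antibody-secreting median. Its mean was 4994 ± 3869 TPM in antibody-secreting cells and 339 ± 520 TPM in Ins T cells (SD over 21 and 236 cells), a log2 ratio of 3.88.

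Hspa5 (BiP), the central HSP70 of the ER, was 348, 1815 and 5883 TPM at its lowest, median and highest in antibody-secreting cells, against 0, 276 and 3248 TPM in Ins T cells. It was detected in 21 of 21 antibody-secreting and in 153 of 236 Ins T cells (64.8%, interval 58.4 to 70.9%). Its log2 ratio of 2.12 was below the median of the 44 genes, since T cells also held it at a mean of 513 TPM. The 2 main chaperones thus differed in their ratio: 14.7-fold for Hsp90b1 and 4.33-fold for Hspa5.

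The proteins that work with BiP were higher too. Dnajb9 (ERdj4), a BiP co-chaperone, had a mean of 694 TPM in antibody-secreting cells, against 23.3 TPM in Ins T cells, but 1 cell at 7949 TPM carried much of that mean, and its median was 312 TPM. Its log2 ratio was 4.84. Dnajc3 (p58IPK) had a log2 ratio of 3.49, Dnajb11 (ERdj3) 2.31 and Hyou1, an HSP110-type exchange factor for BiP, 2.50. Sdf2l1, a partner of ERdj3 in the BiP cycle, had a log2 ratio of 3.78 and was detected in 20 of 21 antibody-secreting and 55 of 236 Ins T cells.

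Creld2 and Manf are ER proteins known as targets of the stress response. Creld2 was 0, 1878 and 5274 TPM at its lowest, median and highest in antibody-secreting cells, and was detected in 19 of 21 of them, against 36 of 236 Ins T cells, with a log2 ratio of 4.75. Of the antibody-secreting cells, 13 lay above the highest Ins T cell. Manf was detected in 21 of 21 cells, with a log2 ratio of 3.12.

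The lectin chaperones, which hold glycoproteins while they fold, stood at the low end. Calr (calreticulin) averaged 971 TPM in antibody-secreting cells and 250 TPM in Ins T cells, a log2 ratio of 1.95. Canx (calnexin) averaged 269 ± 143 TPM in antibody-secreting cells and 135 ± 187 TPM in Ins T cells (SD over cells), a log2 ratio of 0.99, just inside 2-fold. It was detected in 21 of 21 antibody-secreting and 137 of 236 Ins T cells.

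Of the 7 enzymes for disulphide bonds and proline isomers, 6 were higher past 2-fold. Pdia4 (ERp72) was 481, 2168 and 3715 TPM at its lowest, median and highest in antibody-secreting cells, against 0, 0 and 2355 TPM in Ins T cells, with a log2 ratio of 3.60. Only 1 of 236 T cells reached the antibody-secreting median. Pdia6 (P5) had a log2 ratio of 2.62, P4hb (PDI) 1.87, and Ero1l, the oxidase that recharges PDI, 2.16. Ero1l was low in both, detected in 8 of 21 antibody-secreting cells (38.1%, interval 18.1 to 61.6%) and 18 of 236 Ins T cells (7.63%, interval 4.58 to 11.8%).

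Pdia3 (ERp57), the PDI that works with calnexin and calreticulin and also in the loading of MHC class I, was the exception. It was 0, 703 and 2511 TPM at its lowest, median and highest in antibody-secreting cells, against 0, 552 and 8797 TPM in Ins T cells. The groups overlapped widely, 87 of 236 T cells reaching the antibody-secreting median, and the log2 ratio was 0.38. The proline isomerases both passed 2-fold, Fkbp2 with a log2 ratio of 3.70 and Ppib (cyclophilin B) with 1.67. Ppib was already detected in 160 of 236 Ins T cells and averaged 716 TPM there, against 2285 TPM in antibody-secreting cells.

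**Figure D3:**
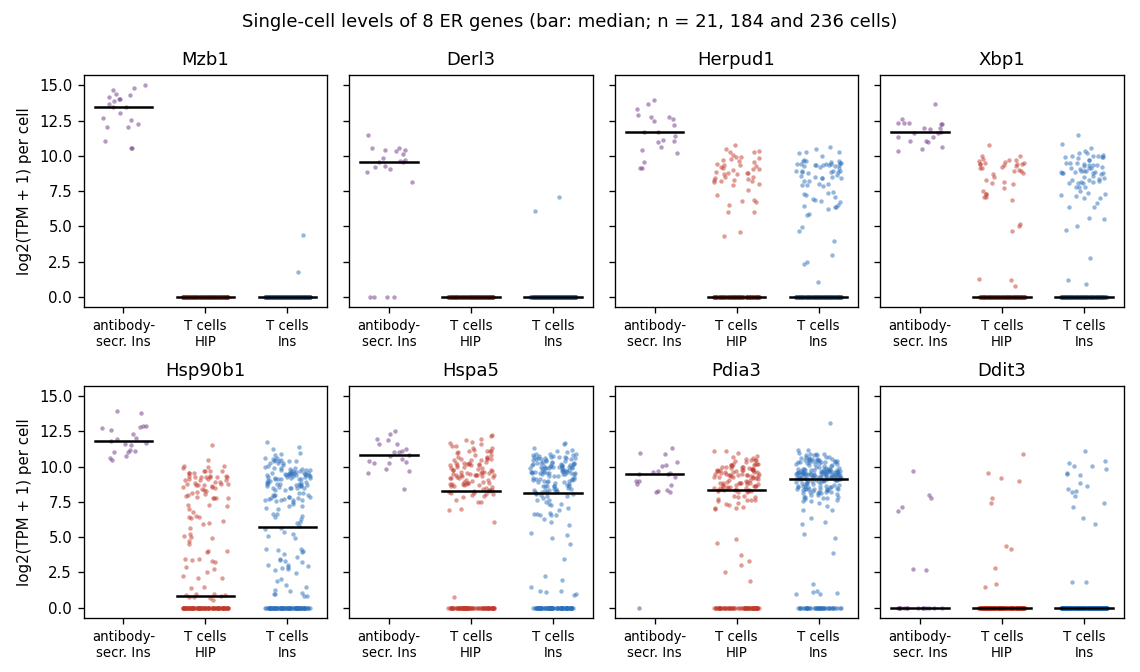
Level of 8 of the ER genes in single cells, as log2(TPM + 1) (y axis), in antibody-secreting cells, HIP T cells and Ins T cells (21, 184 and 236 cells; bars are medians). Mzb1 and Derl3 are at 0 in nearly all T cells, Herpud1 and Xbp1 in most, whereas Pdia3 has like medians in antibody-secreting and Ins T cells.

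Of the 13 genes of translocation and signal peptide cleavage, 12 were higher past 2-fold. Sec11c, a catalytic subunit of signal peptidase, was 1526, 5297 and 7779 TPM at its lowest, median and highest in antibody-secreting cells, against 0, 0 and 4539 TPM in Ins T cells. Its log2 ratio was 3.71, and 12 of 21 antibody-secreting cells lay above the highest T cell. The other catalytic subunit, Sec11a, had 258 TPM in antibody-secreting cells and 380 TPM in Ins T cells, a log2 ratio of -0.55. The catalytic subunits, of which a signal peptidase complex holds Sec11a or Sec11c, thus stood on opposite sides of 0. The accessory subunits of signal peptidase had smaller ratios than Sec11c, with log2 values of 2.62 for Spcs3, 1.98 for Spcs2 and 1.60 for Spcs1.

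The channel itself was higher as well. Sec61a1, which forms the pore, averaged 1100 TPM in antibody-secreting cells and 216 TPM in Ins T cells, a log2 ratio of 2.35. Sec61b had a log2 ratio of 2.73 and Sec61g 1.45. The 4 subunits of the translocon-associated protein complex, which assists the entry of many signal peptides, had log2 ratios of 1.46 for Ssr1, 2.27 for Ssr2, 2.70 for Ssr3 and 3.16 for Ssr4. Ssr4 was 1373, 4165 and 9239 TPM at its lowest, median and highest in antibody-secreting cells, against 0, 63.8 and 2824 TPM in Ins T cells, and 16 of 21 antibody-secreting cells lay above the highest T cell.

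Sec62 and Sec63, partners of the channel that serve mainly short or weakly targeted proteins and the docking of BiP, stood apart from the other 11 genes of this role. Sec62 averaged 29.8 ± 36.7 TPM in antibody-secreting cells and 48.4 ± 155 TPM in Ins T cells (SD over cells), a log2 ratio of -0.68. It was nonetheless detected in 14 of 21 antibody-secreting cells (66.7%, interval 43.0 to 85.4%) and 88 of 236 Ins T cells (37.3%, interval 31.1 to 43.8%). Sec63 was low in both, at 13.8 TPM in antibody-secreting cells and 5.63 TPM in Ins T cells, detected in 5 of 21 and 14 of 236 cells. Its log2 ratio of 1.16 was 0.63 without the highest cell of each side and 0.0092 against the 63 Ins T cells with 2181 to 2838 genes detected, so its place past 2-fold rests on few cells.

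Of the 8 genes of ER-associated degradation, 7 were higher past 2-fold. Herpud1, which organises the disposal complex, was 573, 3285 and 16347 TPM at its lowest, median and highest in antibody-secreting cells, against 0, 0 and 1603 TPM in Ins T cells. Its log2 ratio was 5.14, and 16 of 21 antibody-secreting cells lay above the highest T cell. Edem2, a mannosidase that marks misfolded glycoproteins, was 672, 1465 and 3447 TPM in antibody-secreting cells, against 0, 0 and 1164 TPM in Ins T cells, and was likewise above the highest T cell in 16 of 21. Edem2 had a log2 ratio of 4.33 and its relative Edem1 3.82, but their levels differed, with means of 1619 and 149 TPM in antibody-secreting cells.

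The 3 derlins, membrane proteins of the disposal channel, behaved unlike each other. Derl3 was 0, 759 and 2888 TPM at its lowest, median and highest in antibody-secreting cells, detected in 17 of 21 of them and, among T cells, in 0 of the 184 HIP and 2 of the 236 Ins ones. Its log2 ratio of 8.81 again rests on a T cell mean under 1 TPM, 0.870 TPM. Derl1 averaged 448.1 TPM in antibody-secreting cells and 128 TPM in Ins T cells, a log2 ratio of 1.80. Derl2 averaged 50.5 ± 54.4 TPM in antibody-secreting cells and 41.9 ± 97.1 TPM in Ins T cells (SD over cells), a log2 ratio of 0.26. The ubiquitin ligase Syvn1 (HRD1) and its partner Sel1l had log2 ratios of 2.63 and 3.72.

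Of the 4 stress response factors, 3 were higher past 2-fold. Xbp1, the transcription factor of the IRE1 branch, was 1311, 3250 and 12907 TPM at its lowest, median and highest in antibody-secreting cells, against 0, 0 and 2921 TPM in Ins T cells, with a log2 ratio of 4.56. Only 3 of 236 T cells reached the lowest antibody-secreting cell. The level counts spliced and unspliced Xbp1 mRNA together. Atf4, the factor of the PERK branch, averaged 572 TPM in antibody-secreting cells and 150 TPM in Ins T cells, a log2 ratio of 1.92. Atf6 averaged 50.8 TPM in antibody-secreting cells and 11.8 TPM in Ins T cells, a log2 ratio of 2.02.

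Ddit3 (CHOP), which is known to follow strong PERK signalling, did not pass 2-fold. It was detected in 7 of 21 antibody-secreting cells (33.3%, interval 14.6 to 57.0%) and 21 of 236 Ins T cells (8.90%, interval 5.59 to 13.3%). Its mean was 73.9 ± 186 TPM in antibody-secreting cells, of which the highest cell held 813 TPM, and 53.2 ± 237 TPM in Ins T cells (SD over cells), a log2 ratio of 0.47. Set against the T cells of the same block, its log2 ratio was 1.38, 1.68 and -1.79 over the 3 blocks, so the mean has no steady direction.

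Genes with and without a match are set side by side by their ratio in this comparison. Whether the element bears on the ratio was not tested. The 11 genes with an ERSE or ERSE-II match had log2 ratios of 0.99 to 8.81 with a median of 2.63, and the 24 genes with a window but no match -0.68 to 4.84 with a median of 2.07. The ranges overlap. Canx, at the low end, and Derl3, at the high end, hold the same element.

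Genes of neighbouring steps, from lists that were set with earlier results of these data known, are described by counts. Of 13 compared genes of the signal recognition particle, its receptor and translocation, 9 were higher past 2-fold and 0 lower, led by Tram2 (log2 ratio 6.41) and Srprb, the beta subunit of the receptor (3.17). Of 18 compared genes of N-glycosylation and glycan trimming, 12 were higher and 0 lower, among them Rpn1 (3.55), a subunit of the oligosaccharyltransferase, detected in 21 of 21 antibody-secreting cells. Of 20 compared genes listed as ER oxidoreductases, co-chaperones and proline isomerases, 11 were higher, led by Fkbp11 (9.31), Txndc5 (7.55) and Ero1lb (4.40). Lower were 2, Dnajc1 (-1.33) and Cdk2ap2 (-1.89). Cdk2ap2 is named for a link to CDK2 and belongs to none of these ER families, so the counts include a gene of another kind. Txndc5, a PDI-family enzyme, averaged 4321 TPM in antibody-secreting cells and 22.1 TPM in Ins T cells, a level near that of Hsp90b1.

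Further along the route, the counts again stand beside 14.2% higher and 35.6% lower over all genes compared. Of 19 compared genes of ER-associated degradation outside the 44, 9 were higher and 1, Rnf139 (-1.78), lower. Vcp, the ATPase that pulls substrates out of the membrane, averaged 561 TPM in antibody-secreting cells and 347 TPM in Ins T cells, a log2 ratio of 0.69. Of 27 genes of COPII coats and cargo receptors, which carry proteins out of the ER, 14 were higher, led by the glycoprotein receptor Lman1 (3.60) and Sec24a (2.65), and 1, Sec24b (-2.02), lower. Of 13 genes of COPI coats and KDEL receptors, which bring escaped ER proteins back, 7 were higher and 0 lower, including Kdelr2 (2.29).

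Of 20 compared genes of the stress sensors and the ATF4 arm, 13 were higher and 0 lower, beside 14.2% and 35.6% of all genes compared. Some, such as Chac1 and Ern1, passed the detection filter through the antibody-secreting cells alone and could hardly come out lower. Asns, the asparagine synthetase that ATF4 is known to induce, averaged 231 TPM in antibody-secreting cells and 9.74 TPM in Ins T cells, a log2 ratio of 4.43. Chac1 was detected in 5 of 21 antibody-secreting cells and is listed at 0 in all 236 Ins T cells. The IRE1 sensor itself, Ern1, had a log2 ratio of 2.72, detected in 5 of 21 antibody-secreting and 4 of 236 Ins T cells. Ppp1r15a (GADD34), which reverses the PERK signal, averaged 48.0 TPM in antibody-secreting cells and 38.7 TPM in Ins T cells, a log2 ratio of 0.31. Of 13 compared factors of antibody-secreting cells, 11 were higher and 0 lower, a list that overlaps the markers used to name the class.

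The antibody-secreting cells also differed among themselves. The ER share had a median of 8.52% in the 2 cells of the first block, 5.17% in the 14 cells of the second and 9.49% in the 5 cells of the third. Igj ran the other way, with medians of 7.69%, 15.1% and 6.19% of TPM. Over the 21 cells the ER share and the Igj share had a Pearson correlation of -0.67 and a Spearman correlation of -0.62. Igj is part of the total that the ER share is taken from; with Igj and Rn45s left out of the total, the correlations were -0.45 and -0.52. Among single genes detected in all 21 cells, Spcs2 and Sec11c varied least, with SDs of 33.5% and 35.6% of the mean, and Herpud1 most, with 91.0%. The cell with the highest Igj share, 32.1%, had an ER share of 4.91%, and the cell with the most ER transcripts, 10.7%, had 7.22% Igj. The cell with Cd3e, at 283 TPM, had 4254 genes detected, the most in the class, and an ER share of 4.10%. Leaving it out gave 39 genes higher past 2-fold and a median log2 ratio of 2.58.

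**Figure D4:**
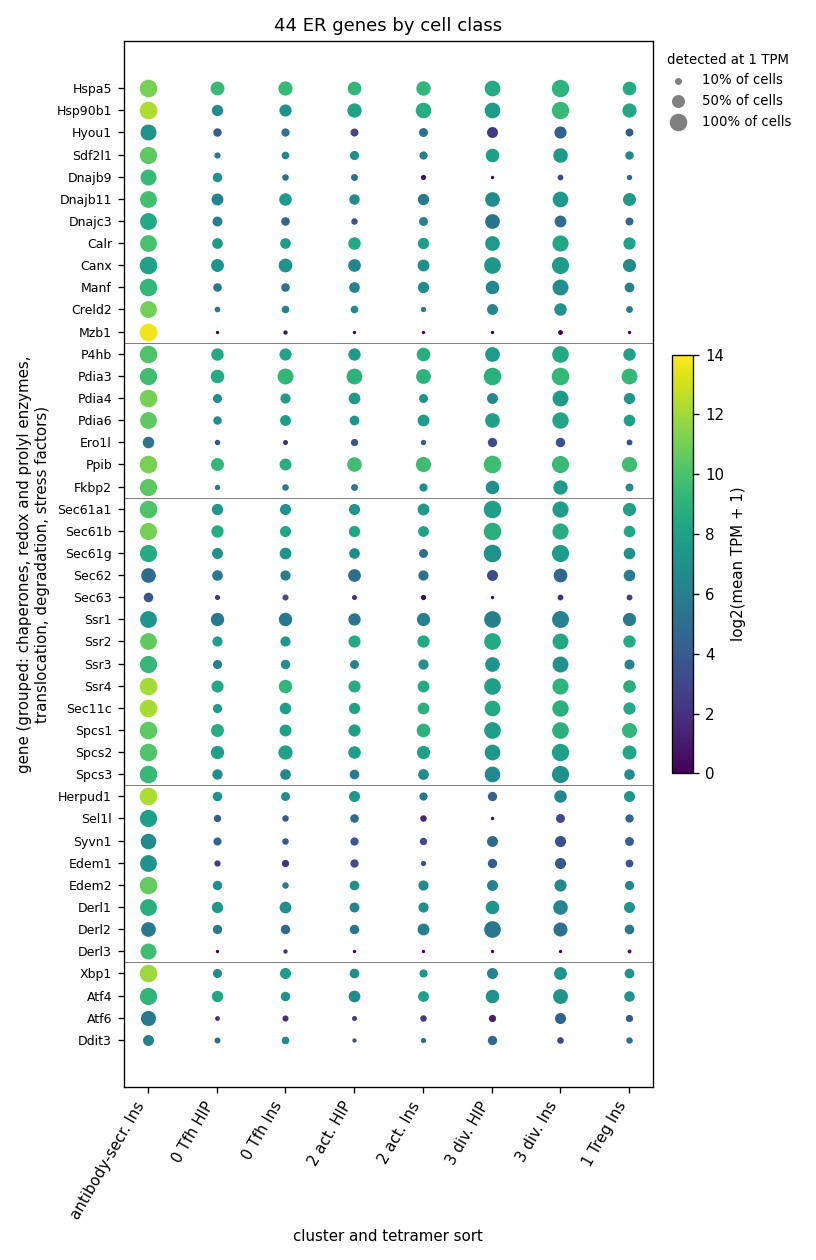
Mean level (colour, log2 of mean TPM + 1) and share of cells with the gene detected (point size) for the 44 ER genes (y axis, grouped by role) in each cluster and tetramer sort (x axis; Tfh is T follicular helper, act. activated, div. dividing). The antibody-secreting column is highest for most genes, and dividing cells have larger points than the other T cells at like colours.

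The comparisons among T cells below share cells with each other. The ER share varied little between T cell classes. Its median was 0.616% in HIP and 0.652% in Ins cells of cluster 0, 0.719% in Ins Treg cells, 0.630% in HIP and 0.758% in Ins cells of cluster 2, and 0.587% in HIP and 0.819% in Ins dividing cells. The SD over cells within these classes was 0.176 to 0.339 percentage points, and the classes overlapped. The 3 HIP Treg cells, with a median of 0.712%, are too few to compare. The number of the 44 genes detected, in contrast, had medians of 24 in HIP and 28 in Ins dividing cells, against 11 to 14 in the clusters 0 and 2 of both sorts and in Ins Treg cells. Dividing cells also had more genes detected in all, with medians of 3992 in HIP and 3610 in Ins cells, against 1862 to 2075 in these other classes. Over all 420 T cells the number of ER genes detected followed the number of all genes detected (Pearson 0.82, Spearman 0.75), whereas the ER share did not (0.02 and 0.01).

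The T cells with the highest ER shares drew them from different genes. A Treg cell with 694 genes detected stood at 2.57%, most of it from Pdia3 (8797 TPM) and Ppib (6216 TPM), with 9 of the 44 genes detected. A second Treg cell at 2.18% was led by Sec11c (4539 TPM) and Hsp90b1 (2726 TPM). At the other end, 1 HIP cell of cluster 0 with 739 genes detected had 0 of the 44 genes.

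The most abundant ER genes of T cells were mostly others than those of antibody-secreting cells. Ppib, Pdia3, Hspa5, Ssr4 and Spcs1 led in Ins T cells with means of 716, 633, 513, 487 and 475.7 TPM. Mzb1, Hsp90b1, Herpud1, Sec11c and Ssr4 led in antibody-secreting cells with 12937, 4994, 4757, 4658 and 4367 TPM. Only Ssr4 was in both groups of 5.

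In dividing cells against Treg cells of the Ins sort, 39 of the 44 genes could be compared. Past 2-fold, 3 (7.69%) were higher, against 15.5% of all genes compared, and 2 (5.13%) lower, against 17.7%. Hsp90b1 averaged 680 TPM in dividing and 319 TPM in Treg cells (log2 ratio 1.09) and was detected in 97.1% and 61.7% of them. It was higher in dividing cells in each of the 3 blocks, with 673, 394 and 976 TPM against 397, 125 and 441 TPM. Creld2, at means of 145 TPM in dividing and 62.4 TPM in Treg cells, and Sdf2l1 (log2 ratio 1.01) were the other higher genes, but both came from the first block. Creld2 stood there at 251 TPM in dividing and 64.8 TPM in Treg cells, against 27.2 TPM in dividing and 62.2 TPM in Treg cells of the second block and 103 TPM in dividing and 60.7 TPM in Treg cells of the third. Sdf2l1 stood at 342 TPM in dividing and 72.7 TPM in Treg cells of the first block. Without that block the log2 ratio was 0.079 for Creld2 and -0.075 for Sdf2l1. Sel1l (-1.52) was lower, as was Sec62, at 22.5 TPM in dividing and 53.1 TPM in Treg cells, though it was detected in 57.1% of dividing and 38.3% of Treg cells and its difference of mean log2(TPM + 1) was 0.11. Each of these 5 genes came inside 2-fold without 1 of the blocks, Sel1l at -0.94 without the first and Hsp90b1 at 0.91 without the second.

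In Treg cells against cluster 0 of the Ins sort, 39 genes could be compared, of which 6 were higher (14.6% of all genes) and 2 lower (13.7%). Atf6 had the largest log2 ratio, 2.33, at a mean of 15.5 TPM in Treg cells and 2.30 TPM in cluster 0, so it rests on few cells. Spcs1 averaged 596 TPM in Treg cells and 244 TPM in cluster 0 (1.29), detected in 69.6% (interval 60.3 to 77.8%) and 41.0% (28.6 to 54.3%) of them. Edem1 (1.53), Ssr2 (1.14), Hsp90b1 (1.06) and Fkbp2 (1.05) were the other higher genes. Ddit3 (-1.46) and Hyou1 (-1.08) were lower in Treg cells. Several of these rested on 1 block. Without the second Ins block Edem1 stood at 0.49, Fkbp2 at 0.57 and Hyou1 at -0.29, without the third Fkbp2 at 0.52 and Hsp90b1 at 0.79, and without the first Ssr2 at 0.85.

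In cluster 2 against cluster 0 of the HIP sort, 38 genes could be compared, of which 3 were higher (11.4% of all genes) and 6 lower (14.8%). Hsp90b1 averaged 292 TPM in cluster 2 and 104 TPM in cluster 0 (1.48), with 316 and 273 TPM in the 2 HIP blocks of cluster 2 and 116 and 91.1 TPM in those of cluster 0, which did not overlap. Sdf2l1 (1.40) and Creld2 (1.21) were also higher. Atf4 averaged 107 TPM in cluster 2 and 310 TPM in cluster 0 (-1.53), though it was detected in 39.3% and 36.9% of cells and those intervals overlapped. Dnajc3 (-2.17), Dnajb9 (-1.95), Derl1 (-1.06), Hyou1 (-1.05) and Spcs3 (-1.02) were the other lower genes. Without the second HIP block Hyou1 stood at 0.033, Sdf2l1 at -0.23 and Spcs3 at -0.86, and without the first Atf4 stood at -0.75 and Derl1 at -0.993, inside 2-fold.

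The 2 tetramer sorts were compared within a cluster, since the mix of clusters differs between them. Sort and block of cell numbers cannot be told apart, because no block held cells of both sorts. In cluster 0, 38 genes could be compared, of which 5 were higher in HIP cells (12% of all genes) and 3 lower (10.8%), close to the shares over all genes. Atf4 averaged 310 TPM in HIP and 122 TPM in Ins cells (log2 ratio 1.34). Its 2 HIP blocks stood at 386 and 224 TPM and its 3 Ins blocks at 189, 84.6 and 111 TPM, so they did not overlap. Dnajc3 averaged 57.2 TPM in HIP and 23.3 TPM in Ins cells (1.26), again without overlap of the blocks (50.1 and 65.3 TPM in HIP, 6.72, 30.5 and 28.0 TPM in Ins). Dnajb9 averaged 130 TPM in HIP and 33.3 TPM in Ins cells (1.94), but its lower HIP block at 77.1 TPM was under the highest Ins block at 78.0 TPM. Edem2 (1.21) and Derl2 (1.01) were the other higher genes, and Ddit3 (-1.82), Dnajb11 (-1.36) and Hyou1 (-1.16) the lower ones. Leaving out 1 block brought 6 of the 8 inside 2-fold: Atf4 stood at 0.87 and Derl2 at 0.69 without the first HIP block, Dnajb11 at -0.85 without the second, Dnajc3 at 0.95 without the first Ins block, and Edem2 at 0.78 and Hyou1 at -0.79 without the second. Ddit3 fell under the detection filter without the third Ins block.

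Of the genes on the list of stress sensors and the ATF4 arm, Ppp1r15a had the largest ratio between the sorts in cluster 0, at 453.7 TPM over HIP cells, against 5.12 TPM over Ins cells (log2 ratio 6.22), detected in 36.9% and 1.64% of cells. On the same list Ppp1r15b (-2.44) and Shmt2 (-1.20) were lower in HIP cells of cluster 0. Ppp1r15a averaged 341 TPM in HIP and 153 TPM in Ins cells of cluster 2 (1.15), and among dividing cells it is listed at 0 in all 9 HIP cells, against a mean of 26.8 TPM in Ins cells.

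In cluster 2, 38 genes could be compared, of which 5 were higher in HIP cells (18.8% of all genes) and 6 lower (17.1%). Sel1l (3.57), Herpud1 (2.09), Sec61g (1.57), Creld2 (1.29) and Dnajb11 (1.23) were higher. Dnajc3 (-2.47), Hyou1 (-2.21), Atf4 (-1.14), P4hb (-1.13), Spcs1 (-1.13) and Fkbp2 (-1.10) were lower. Leaving out 1 Ins block turned Fkbp2 to 0.90 (without the second, whose 7 cells averaged 334 TPM) and brought Dnajc3 to -0.54 (without the third, whose 10 cells averaged 150 TPM). Likewise Creld2 stood at 0.57 and Spcs1 at -0.73 without the third Ins block, Dnajb11 at 0.66 without the second HIP block, and Atf4 at -0.83 and P4hb at -0.81 without the first. Herpud1 averaged 188 TPM in HIP and 43.4 TPM in Ins cells, and its blocks did not overlap: 223 and 160 TPM in HIP, 0, 144 and 8.00 TPM in Ins. Atf4, higher in HIP cells of cluster 0, was lower in HIP cells of cluster 2, at 107 TPM against 236 TPM in Ins cells, with overlapping blocks.

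In dividing cells, with 9 HIP and 35 Ins cells, 40 genes could be compared, of which 2 were higher in HIP cells (15.8% of all genes) and 10 lower (22.2%). Hsp90b1 averaged 205 ± 223 TPM in HIP and 680 ± 561 TPM in Ins cells (SD over cells; log2 ratio -1.73), with HIP blocks at 387 and 152 TPM below the 3 Ins blocks at 673, 394 and 976 TPM. Atf6 (-3.49), Herpud1 (-2.28), Hyou1 (-2.02) and Sec62 (-1.27) were lower, and Sel1l is listed at 0 in all 9 HIP cells, against a mean of 7.12 TPM in Ins cells. Ddit3 (1.65) and Syvn1 (1.26) were higher, but Ddit3 rested on 1 cell: without the highest cell of each side its log2 ratio was -1.45. Hsp90b1 stood at -0.81 without the second HIP block, which leaves 2 HIP cells, and Syvn1 at 0.79 without the first Ins block.

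**Figure D5:**
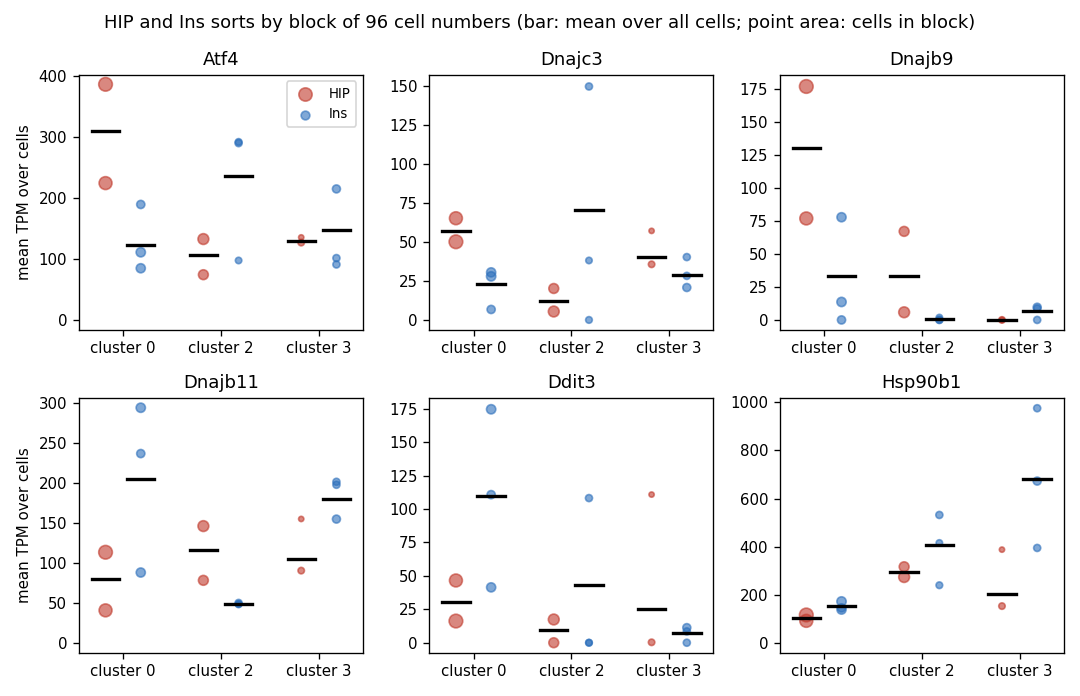
Mean TPM (y axis) of 6 ER genes in HIP and Ins cells of clusters 0, 2 and 3 (x axis), each point being 1 block of 96 cell numbers with its area by the number of cells, and bars the mean over all cells. HIP and Ins blocks are apart for Atf4, Dnajc3 and Hsp90b1 in cluster 0, for Dnajb9 and Dnajb11 in cluster 2 and for Hsp90b1 in cluster 3. They are mixed or tied for the other genes and clusters shown, including Ddit3 in clusters 0, 2 and 3.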

How the data were processed

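SMART-Seq2 libraries of 441 single islet cells were read from both ends on a NextSeq instrument, per the labels' protocols. The submitters' processing notes list RSEM 1.2.8, TopHat, Bowtie and the build mm10 with no role for any of them. The authors deposited natural log values per gene and cell, read as ln(TPM/10 + 1): the exponential minus 1 summed to 100000 in each cell, so TPM was 10 times that and summed to 1000000. TPM keeps no read depth, which is unknown here; the number of genes detected stands in for it. The authors' filters on genes and cells were not given in the sources used here, and no doublets were removed for this work.

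Cells were grouped by the authors' deposited annotation, which matched the labels in 441 of 441 cells. For each comparison the mean TPM over cells was taken on both sides, 1 TPM was added to each, and all genes of the table that reached 1 TPM (detected) in 10% or more of the cells on 1 side were compared. A gene was counted past 2-fold. No test was made, since each sort is 1 sample. Shares of cells carry exact 95% Clopper-Pearson intervals (scipy 1.17.1), for counting error only. Spread was followed over blocks of 96 consecutive cell numbers. The calculation was tested on simulated data. Python 3.11.15, pandas 2.3.3, numpy 2.4.6 and matplotlib 3.10.9 were used.

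The 44 genes, the lists of neighbouring steps and the markers were chosen with earlier results of these data known. Named were all of the 44 past 2-fold in the antibody-secreting comparison and the 4 stress factors, at most the 6 largest in each direction elsewhere, and from the lists at most the 4 largest per direction; a few further list genes (Sec11a, Vcp, Kdelr2, Ppp1r15a, Ern1 and Rpn1) were named after their values were seen. Retention signals at the protein ends were planned but not analysed here. The plan assumed linear TPM; the values were logs and were turned back first.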

Additional observations from a re-analysis of the deposited data

Results flagged for a closer look

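In 6 of the 39 ER genes compared in 2 or 3 clusters (15.4%), against 10.8% of the 6583 such genes in all, HIP over Ins ratios pointed past 2-fold in opposite directions in different clusters; in each case the difference was not tested, and sort and block of cell numbers cannot be told apart. Atf4 was higher in HIP cells of cluster 0 (log2 ratio 1.34) and lower in HIP cells of cluster 2 (-1.14), a gap of 2.48, with 0.87 in cluster 0 and -0.83 in cluster 2 without the first HIP block. Dnajc3 did likewise, with 1.26 in cluster 0 and -2.47 in cluster 2, a gap of 3.73, but its value in cluster 2 was -0.54 without the third Ins block. Dnajb11 went the other way, with 1.23 in cluster 2 and -1.36 in cluster 0, a gap of 2.59; without the second HIP block the values were 0.66 and -0.85. Herpud1 was higher in HIP cells of cluster 2 (2.09) and lower in HIP dividing cells (-2.28), a gap of 4.37. Sel1l had 3.57 in cluster 2, where its mean was 29.0 TPM over HIP cells and 1.53 TPM over Ins cells, and is listed at 0 in the 9 HIP dividing cells, so its gap of 6.59 depends on the 1 TPM added. Ddit3 had 1.65 in dividing cells and -1.82 in cluster 0, a gap of 3.46, and its value in dividing cells rested on 1 cell.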

How the results depend on the processing

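In the antibody-secreting comparison, the settings tried gave 29 (4-fold threshold) to 43 (difference of mean log2) of the 44 genes higher and 0 lower. The median log2 ratio was 2.56, and 5.50 as a difference of mean log2(TPM + 1), 2.27 with 10 TPM added, 2.83 against cluster 0 alone and 3.07 relative to the median of all genes. The last 2, and the fits against T cells of like gene number and without the cell with Cd3e, were chosen after seeing the data. Without Igj and Rn45s in the total, the median of all genes was -0.31 in place of -0.51, and 40 of the 44 were higher. The counts past 2-fold among T cells were less stable, and of the named genes those that came inside 2-fold without 1 block are given beside their values. Others lost their call without 1 block by falling under the 10% detection filter. These included Creld2 in cluster 2 against cluster 0, and Atf6 and Ddit3 in Treg cells against cluster 0. For dividing against Treg cells, 5 became 33 with mean log2, 2 with 10 TPM added, 0 at 4-fold and 11 without the third Ins block. All 33 with mean log2, of 39 compared, were higher in dividing cells. With that measure 42.3% of all 8150 genes compared were higher and 0.896% lower. Sec62 turned to 0.11 with mean log2 and Sdf2l1 to -0.075 without the first Ins block. For cluster 2 against cluster 0, 9 became 5 with detection in 25% of cells and 1 at 4-fold; Hyou1 turned to 0.028 with mean log2 and to 0.033 without the second HIP block, and Sdf2l1 to -0.23 without that block. For Treg cells against cluster 0, 8 became 5 with 10 TPM added, 3 at 25% and 1 at 4-fold. For HIP against Ins cells, 8 became 3 at 25% and 0 at 4-fold in cluster 0, 11 became 6 at 25% and 4 at 4-fold in cluster 2, and 12 became 4 at 4-fold in dividing cells, where Ddit3 turned to -1.45 without the highest cell of each side and to -2.65 without the first HIP block. The cause was not tested, beyond what a higher threshold or fewer genes bring about by construction. No paired analysis was possible because each sort is 1 sample and the replicate numbers only name single cells, so that none ties a HIP cell to an Ins cell; classes of 1 sort that share blocks are set side by side block by block. Read depth is unknown, so a gene at 0 in a cell may be missed rather than absent.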
